A study of Mus musculus with 6 samples.

Results

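The genes described here are the transforming growth factor β (TGF-β) pathway that lies behind antibody class switching to IgA: the ligand gene Tgfb1, the receptor genes Tgfbr1 and Tgfbr2, the signal transducer genes Smad2, Smad3, Smad4 and Smad7, and the transcription factor genes Runx2 and Runx3. They were chosen by name, and all 9 were found, each at 1 locus, among 44794 loci with a gene name. They were read in spleen RNA from 2 groups of 3 samples. The first group was B6.Sle1b, a C57BL/6 line with the lupus susceptibility interval Sle1b, and the second Sle1b.IFNγR-/-, which carries the same interval and has no working receptor for interferon-γ. Imiquimod, which activates the RNA sensor TLR7, had been given 3 times a week over 4 weeks in both groups, and no untreated sample was analysed here. The labels give no age, do not say which receptor subunit was disrupted, and do not say whether a sample is 1 animal. P-values therefore measure the spread between these samples, which may be technical.

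TGF-β1 is secreted in a latent form and, once released, binds a complex of the type II receptor TGFBR2 and the type I receptor TGFBR1. The type I receptor phosphorylates SMAD2 and SMAD3, which join SMAD4 and enter the nucleus, while SMAD7 acts as a brake induced by the same signal. In B cells the SMADs act with RUNX3 and RUNX2 at the germline promoter upstream of the IgA constant region gene Igha, whose transcription precedes switching to IgA. Interferon-γ, by contrast, directs mouse B cells towards IgG2a or IgG2c.

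The promoter sequences are shown first because the RUNX factors, which are members of the pathway, bind TGTGGT and the SMADs bind CAGAC, so both can be read in the genes' own promoters. On the other strand the RUNX letters read ACCACA. Promoters of 300 bases, from 250 before to 50 after a transcription start, came from RefSeq on GRCm38.p6. They matched 6 of the 9 genes with 8 starts: Tgfb1, Tgfbr1, Tgfbr2, Smad3, Runx2 and Runx3. Both motifs were searched on both strands, and their background is the share among all 32851 promoters of the table. The Tgfb1 promoter, the start of the gene with the largest log2 difference of the 9, is chr7:25686752-25687001 on the plus strand (the 250 bases before the start), with no letters in capitals because it held neither motif, which says only that these letters are not in this window:
Tgfb1 promoter: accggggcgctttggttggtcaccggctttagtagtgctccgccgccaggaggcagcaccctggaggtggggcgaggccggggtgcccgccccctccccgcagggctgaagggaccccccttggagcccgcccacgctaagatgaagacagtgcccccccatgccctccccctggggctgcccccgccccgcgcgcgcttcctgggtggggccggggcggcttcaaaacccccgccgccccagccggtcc
CAGAC or its reverse GTCTG was found in 4 of the 8 promoters, those of Tgfbr1, Tgfbr2 and Runx3 (both starts), and in 49.6% of all promoters.

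The letters ACCACA or TGTGGT were found in 2 of the 8 promoters, those of Runx2 and Runx3 themselves, and in 16.8% of all promoters. The longest stretch that the promoters of these 2 genes share is 18 bases long and holds the RUNX motif 2 times in tandem. It lies at chr4:135120509-135120526 (plus strand), 136 to 119 bases before the upstream start of Runx3, and at chr17:44814589-44814606 (minus strand), 22 to 39 bases after the start of Runx2. In the sequences below, capitals mark ACCACA only, and the SMAD letters GTCTG in the Runx3 promoter are left in lower case. The stretch is shown first, followed by the Runx3 promoter (chr4:135120395-135120644, plus strand, the first 250 bases of the window) in which it sits:
Runx2 and Runx3 shared stretch: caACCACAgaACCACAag
Runx3 promoter: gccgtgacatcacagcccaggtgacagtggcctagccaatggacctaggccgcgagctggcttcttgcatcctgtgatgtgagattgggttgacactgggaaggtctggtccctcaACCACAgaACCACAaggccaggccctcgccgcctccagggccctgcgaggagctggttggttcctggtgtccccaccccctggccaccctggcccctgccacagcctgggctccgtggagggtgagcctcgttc
The same 18 bases occurred in 4 of the 32851 promoters, those of Runx1, Runx2, Runx3 and the predicted gene Gm16225. A match describes the letters and is not evidence of binding.

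The values, here called scaled counts, are fragments per gene after quartile scaling by the authors, and 1 fragment was worth between 0.822 and 1.198 scaled counts. The libraries corresponded to between 4394283 and 6349836 fragments, of which between 17.5% and 27.0% lay at loci with a gene name. The 27.0% was B6.Sle1b replicate 1, and the other 5 libraries lay between 17.5% and 20.0%. Of the 9 genes, 8 had values that were whole fragments in every library, from 0 to 133 fragments, and the exception was Smad3, whose values were fractional. Ribosomal protein genes were summarised per library by the median over 29 of them, relative to the geometric mean of the 6 libraries. This ribosomal level was 2.903, 0.685 and 0.905 for B6.Sle1b replicates 1 to 3. Among the Sle1b.IFNγR-/- libraries it ranged from 0.805 to 0.854. Because the values were already scaled, it describes these genes and does not measure the total RNA of a library. The log2 factors of median-ratio scaling differed less: 0.23, -0.12 and 0 for B6.Sle1b, against -0.06, -0.05 and -0.01 for Sle1b.IFNγR-/-. B6.Sle1b replicate 1 thus stood apart from the other 5 libraries in its ribosomal level and in its share at named loci. Results are given with and without this library. The samples are whole spleen, so fewer cells of a type and less RNA per cell cannot be told apart.

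Tgfb1 (ENSMUSG00000002603.15, chromosome 7, 25687002 to 25705077, GRCm38), the ligand, was barely detected. The B6.Sle1b replicates 1 to 3 held 10.2, 0.822 and 0.937 scaled counts and the Sle1b.IFNγR-/- replicates 9.62, 4.5 and 5.99, which is 10, 1 and 1 fragments against 11, 4 and 5. The groups overlapped through B6.Sle1b replicate 1 alone, while the other B6.Sle1b libraries were lower than each library without the receptor. The order at the top turns with the unit, since B6.Sle1b replicate 1 was highest in scaled counts and Sle1b.IFNγR-/- replicate 1 in fragments. The means were 3.98 ± 5.38 and 6.7 ± 2.63 scaled counts (SD, n = 3 each), below the mean of 10 over the 6 libraries that was needed for the test.

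Summed over libraries, 12 of 17523420 fragments in B6.Sle1b stood against 20 of 15051511 in Sle1b.IFNγR-/-. The ratio was 1.94 with an exact 95% interval of 0.903 to 4.35 that covers counting error only. Without B6.Sle1b replicate 1 it was 2 against 20 fragments, a ratio of 7.89 (1.92 to 69.7). This interval also covers counting error only, and the library left out is the one through which the groups overlapped. In a fit without the minimum and without that library, added after the data were seen, the log2 difference of Tgfb1 was 1.98 (limma, adjusted p = 0.9628, unadjusted 0.0588), and with all 6 libraries it was 1.12 (adjusted p = 0.9637). Of the 34709 loci in the first of these fits, 8.36% were likewise higher in each library without the receptor than in the remaining B6.Sle1b pair, and 0.0144% passed an adjusted p of 0.05.

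Smad7 (ENSMUSG00000025880.11, chromosome 18, 75367529 to 75395935), the inhibitory SMAD, was the other gene under the minimum. It had 13.2, 0.0 and 3.75 scaled counts in B6.Sle1b against 3.5, 2.25 and 2.4 in Sle1b.IFNγR-/-, or 13, 0 and 4 against 4, 2 and 2 fragments. All libraries but B6.Sle1b replicate 1 lay within a few fragments of each other, and the count of 0 in B6.Sle1b replicate 2 has an exact 95% upper limit of 3.69 fragments. The ratio of summed fragments was 0.548 (0.205 to 1.34) and 1.58 (0.423 to 7.16) without B6.Sle1b replicate 1. A difference in the brake of the pathway was therefore not detected with these counts.

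**Figure D1:**
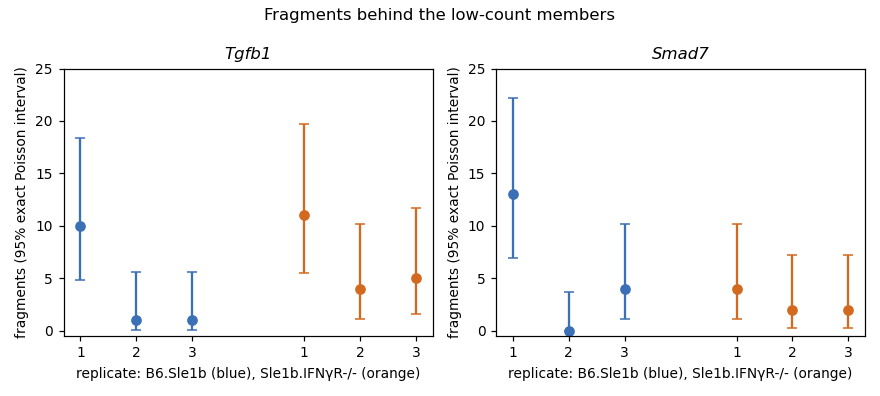
Fragments of Tgfb1 and Smad7 in each library (y axis) with exact 95% Poisson intervals, for B6.Sle1b (blue) and Sle1b.IFNγR-/- (orange) replicates 1 to 3. Tgfb1 has 1 fragment each in B6.Sle1b replicates 2 and 3 and 4 to 11 in the Sle1b.IFNγR-/- libraries, and all its intervals overlap. For Smad7 the intervals of B6.Sle1b replicates 1 and 2 do not overlap.

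Among the receptor genes, Tgfbr2 (ENSMUSG00000032440.13, chromosome 9, 116084293 to 116175360) encodes the chain that binds the ligand first. It had 136, 29.6 and 42.2 scaled counts in B6.Sle1b against 61.2, 53.9 and 32.3 in Sle1b.IFNγR-/-. B6.Sle1b replicate 1 was more than all other libraries, and the remaining 5 were intermingled. The log2 difference (Sle1b.IFNγR-/- minus B6.Sle1b, on the log2(value + 1) scale, which understates the change of low genes) was -0.22, with a 95% interval of -1.28 to 0.84 and a limma Benjamini-Hochberg adjusted p of 0.9998.

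Tgfbr1 (ENSMUSG00000007613.15, chromosome 4, 47353222 to 47414931), the signalling kinase, had 87.6, 27.1 and 35.6 scaled counts in B6.Sle1b against 39.3, 25.8 and 32.3 in Sle1b.IFNγR-/-. Again only B6.Sle1b replicate 1 stood out. The log2 difference was -0.45 (-1.37 to 0.48, limma adjusted p = 0.9998), an interval that runs from 0.39 to 1.39 as a fold on the log2(value + 1) scale. Without B6.Sle1b replicate 1 the differences became 0.42 for Tgfbr2 and 0.04 for Tgfbr1, so the sign of each rested on that library. The ratio of Tgfbr2 to Tgfbr1 within a library, which does not depend on the scale between libraries, ranged from 1.09 to 1.55 in B6.Sle1b and from 1.0 to 2.09 in Sle1b.IFNγR-/-, so the groups overlapped.

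**Figure D2:**
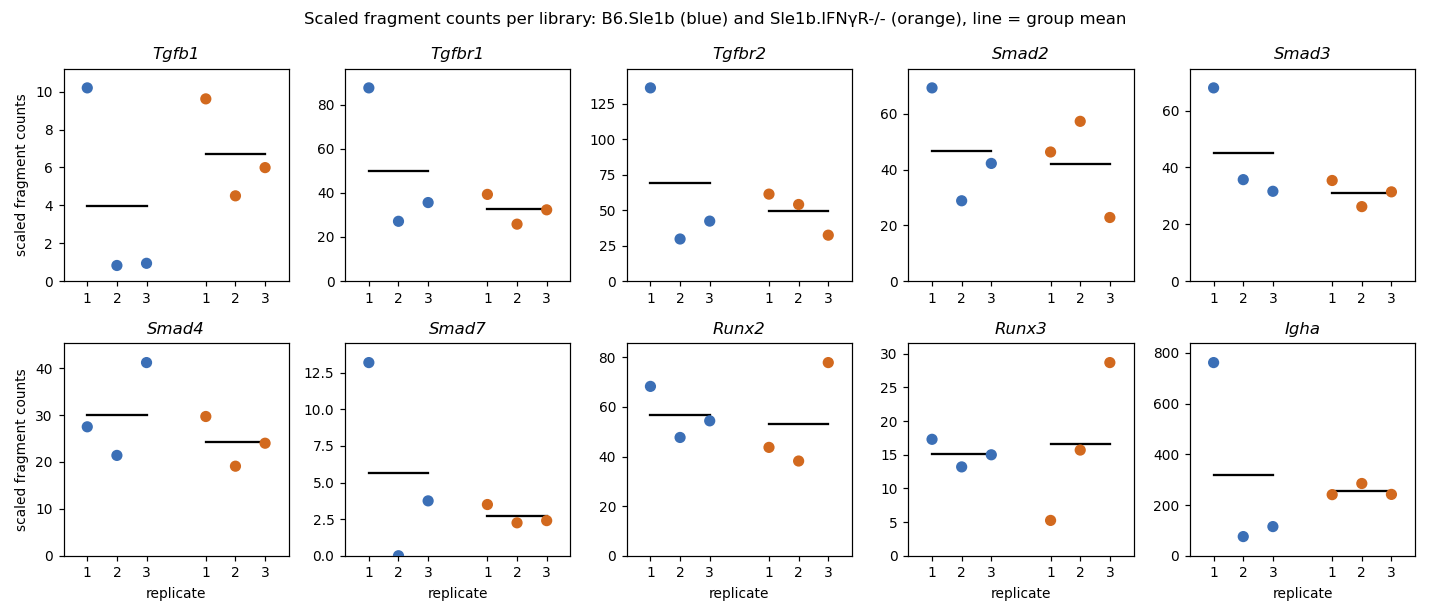
Scaled fragment counts (y axis, linear from 0) of the 9 pathway genes and Igha in each replicate (x axis) of B6.Sle1b (blue) and Sle1b.IFNγR-/- (orange), with group means as lines. B6.Sle1b replicate 1 is the highest of the B6.Sle1b libraries in 8 of the 9 pathway genes, Smad4 being the exception.

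The receptor-regulated SMAD genes gave intermediate values. Smad2 (ENSMUSG00000024563.16, chromosome 18, 76241580 to 76310963) had 69.3, 28.8 and 42.2 scaled counts in B6.Sle1b against 46.3, 57.3 and 22.8 in Sle1b.IFNγR-/-. Smad3 (ENSMUSG00000032402.12, chromosome 9, 63646767 to 63757994), the SMAD that binds DNA at the germline promoter of Igha, had 68.0, 35.7 and 31.6 against 35.4, 26.2 and 31.4. In Smad2 the Sle1b.IFNγR-/- libraries spread as widely as the B6.Sle1b libraries, and in Smad3 they were close together and overlapped with B6.Sle1b replicates 2 and 3. The log2 differences were -0.15 (-1.07 to 0.76) for Smad2 and -0.45 (-1.26 to 0.35) for Smad3, and neither passed limma's threshold (adjusted p = 0.9998 for each). The ratio of Smad3 to Smad2 ranged from 0.75 to 1.24 in B6.Sle1b and from 0.458 to 1.38 in Sle1b.IFNγR-/-.

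Smad4 (ENSMUSG00000024515.13, chromosome 18, 73639009 to 73703780), the partner shared by all receptor-regulated SMADs, was the only pathway gene in which B6.Sle1b replicate 1 was not the highest of its group. It had 27.5, 21.4 and 41.2 scaled counts in B6.Sle1b against 29.7, 19.1 and 24.0 in Sle1b.IFNγR-/-, with overlapping groups. The log2 difference was -0.27 (-1.1 to 0.57, limma adjusted p = 0.9998) and -0.30 without B6.Sle1b replicate 1.

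The transcription factor genes spread more widely among the Sle1b.IFNγR-/- libraries than among the B6.Sle1b libraries. Runx3 (ENSMUSG00000070691.10, chromosome 4, 135120652 to 135177990), whose promoter is shown above, had 17.3, 13.2 and 15.0 scaled counts in B6.Sle1b against 5.25, 15.7 and 28.7 in Sle1b.IFNγR-/-. The B6.Sle1b libraries lay within a narrow range, and the Sle1b.IFNγR-/- libraries fell below, inside and above it, at 6, 14 and 24 fragments. Runx2 (ENSMUSG00000039153.16, chromosome 17, 44495987 to 44814797), which in this context is known as a partner of Runx3 in IgA switching and elsewhere as a bone regulator, had 68.3, 47.7 and 54.4 against 43.7, 38.2 and 77.9. Its highest library was Sle1b.IFNγR-/- replicate 3, as for Runx3. The log2 differences were -0.14 (-1.41 to 1.14) for Runx3 and -0.14 (-0.89 to 0.6) for Runx2 (limma adjusted p = 0.9998 for each). Without Sle1b.IFNγR-/- replicate 1 that of Runx3 became 0.47, and without replicate 3 it became -0.65. The ratio of Runx2 to Runx3 ranged from 3.62 to 3.94 in B6.Sle1b and from 2.43 to 8.33 in Sle1b.IFNγR-/-.

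Across the pathway, the 2 genotypes could not be separated. The groups overlapped in 9 of 9 genes, while they did not overlap in 8.7% of the 19227 loci tested (5.19% lower and 3.51% higher without the receptor). As deposited, 8 of 9 genes had log2 differences below 0, and Tgfb1 was above 0, against 58.1% below 0 among tested loci and 55.5% among all 35092 loci fitted with no minimum. Of the 7 genes tested, 0 passed an adjusted p of 0.05 in limma and 0 had an unadjusted p under 0.05. Over all tested loci 0.0% passed and 596 (3.1%) had an unadjusted p under 0.05. The median log2 difference of the 7 was -0.22, beside -0.08 for all tested loci. The missed threshold does not show that the pathway was equal in the 2 genotypes: the 95% intervals together run from -1.41 to 1.14.

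The direction of the group changed with ribosomal protein scaling but not with median-ratio scaling. With median-ratio scaling 8 of 9 log2 differences were below 0, beside 9753 of 19227 tested loci. With libraries scaled to ribosomal protein genes, 9 of 9 log2 differences were above 0, beside 16229 of 19227 tested loci. The median of all tested loci then moved to 0.45, and 7 of the 9 lay below that median. Without B6.Sle1b replicate 1, 4 of 9 were below 0, beside 48.3% of tested loci. With the ribosomal level as a covariate 5 of 9 were below 0, beside 49.0%. Of the 7 genes tested in that fit, which leaves out Tgfb1 and Smad7, 0 passed an adjusted p of 0.05 in limma, beside 0.0416% of tested loci. Tgfb1 was above 0 in each alternative run. B6.Sle1b replicate 1 was the highest B6.Sle1b library in 6 of the 7 tested genes, against 51.4% of all tested loci, and the highest of all 6 libraries in 4 of the 7, against 37.9%. Its ribosomal level was also the highest, and the part of that level in the results was not tested.

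**Figure D3:**
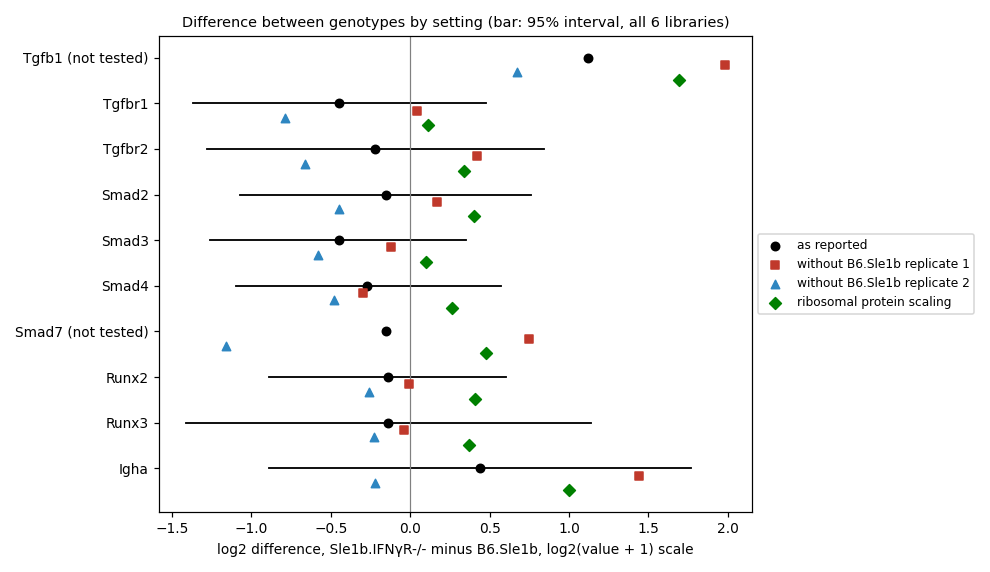
Log2 difference between genotypes (x axis, Sle1b.IFNγR-/- minus B6.Sle1b) for each gene (y axis), with all 6 libraries (black, bar for the 95% interval), without B6.Sle1b replicate 1 (red) or replicate 2 (blue) and with ribosomal protein scaling (green). Each of the 8 intervals drawn crosses 0, and Tgfb1 and Smad7 have no interval because they were not tested.

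To remove the scale between libraries, each gene was expressed as a share of the summed value of the 9 genes in its library. That sum was 497, 204 and 267 scaled counts in B6.Sle1b against 274, 243 and 258 in Sle1b.IFNγR-/-. Tgfbr2 and Runx2 took the largest shares, with 19.2% ± 7.03 and 19.2% ± 4.92 in B6.Sle1b against 19.0% ± 5.61 and 20.6% ± 8.3 in Sle1b.IFNγR-/- (SD, n = 3 each). The shares are not divided by gene length, so they do not rank the genes by level. Tgfb1 took 2.05%, 0.403% and 0.351% in B6.Sle1b against 3.51%, 1.85% and 2.32% in Sle1b.IFNγR-/-, where only B6.Sle1b replicate 1 lay inside the other group's range. Its share differed by 1.63 percentage points (two-sided exact permutation p = 0.2, and 0.9 after Benjamini-Hochberg adjustment over the 9 genes).

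Of the others, Smad3 took 14.3% ± 2.86 in B6.Sle1b against 12.0% ± 1.08 in Sle1b.IFNγR-/-, and Tgfbr1 14.8% ± 2.49 against 12.5% ± 1.86 (SD, n = 3 each, exact permutation p = 0.3 and 0.4). All 9 shares overlapped between groups. With 3 against 3 libraries the smallest possible p is 0.1, so none could have passed.

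**Figure D4:**
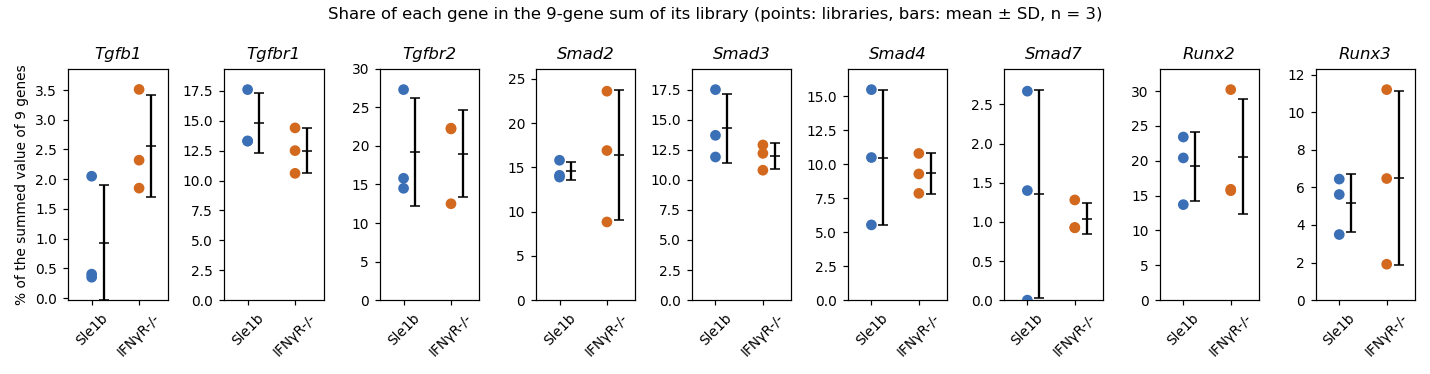
Share of each gene in the summed scaled counts of the 9 genes in its library (y axis, percent), with points for the libraries of B6.Sle1b (blue) and Sle1b.IFNγR-/- (orange) and bars for the mean ± SD. The Sle1b.IFNγR-/- libraries of Tgfb1 lie between 1.85% and 3.51%, above B6.Sle1b replicates 2 and 3 and overlapping with replicate 1.

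Levels of different genes were compared per kb of annotated exon. From the highest, the mean over the 6 libraries was 7.32 scaled counts per kb for Smad4, 7.22 for Tgfbr2, 6.87 for Smad3, 6.32 for Tgfbr1, 6.23 for Runx2, 5.06 for Smad2, 3.17 for Runx3, 1.06 for Tgfb1 and 0.927 for Smad7. Every neighbour in this order overlapped over the libraries. On this scale Tgfb1 was higher than 14.8% and Smad7 than 13.2% of 19349 protein-coding loci with 1 name, and Smad4 than 68.1%. The 9 genes had a median of 6.23 per kb of exon. For comparison, 8 B cell markers had a median of 26.8, 8 markers of pancreas, a tissue next to the spleen, 2.05, and all protein-coding loci 4.61. Igha, at 108 per kb of exon, was far above every pathway gene.

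The unit of length changed this order. The scaled counts of the 9 genes rose with the length of the gene including introns (Spearman's rho = 0.82) and with exonic length (0.83), against 0.48 and 0.59 over the 19349 protein-coding loci. These are descriptions across genes read in the same libraries. Runx2 was the longest gene at 319 kb, of which 2.77% was exonic, and Tgfb1 the shortest at 18.1 kb, of which 27.9% was exonic. Per kb of the whole gene, a measure added after the values were seen, Tgfbr1 (0.67), Tgfbr2 (0.649) and Smad2 (0.641) led, and Runx2 (0.173) and Smad7 (0.147) came last. The median of the 9 was 0.342, close to 0.374 for the pancreas markers and below 0.851 for all protein-coding loci and 5.93 for the B cell markers. The deposited loci also hold transcripts assembled from the reads: at Runx2, 22 transcripts were listed and 13 of these were Ensembl transcripts, and at Smad2 13 and 7. Whether fragments of the long genes came from exons or introns cannot be told from these values.

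**Figure D5:**
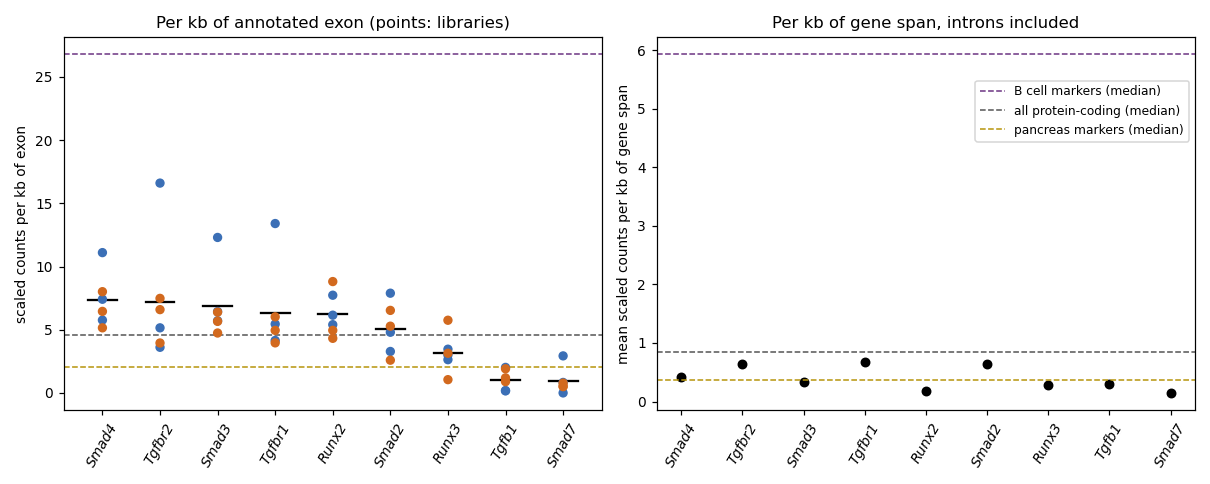
Left, scaled counts per kb of annotated exon for each gene in the libraries of B6.Sle1b (blue) and Sle1b.IFNγR-/- (orange), with the mean as a line; right, mean scaled counts per kb of the whole gene. Dashed lines are medians of B cell markers, all protein-coding loci and pancreas markers, and the 9 genes lie far below the B cell marker median in each panel.

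The other genes of the pathway, taken from lists, likewise had no member past limma's adjusted p of 0.05, in either direction. Of 16 tested genes for other TGF-β ligands, latency and activation, 10 had log2 differences below 0 and 6 above (median -0.21). Tgfb2, another ligand, had 28.0 ± 10.5 in B6.Sle1b and 15.5 ± 9.42 in Sle1b.IFNγR-/-, and Itgav, the integrin chain that helps to release latent TGF-β, 69.2 ± 20.4 and 44.1 ± 18.5. Itgb6, an integrin chain that pairs with it, had 30.3 ± 8.57 and 44.9 ± 13.8, and the matrix protease gene Mmp2 33.0 ± 14.2 and 46.9 ± 7.9 (SD, n = 3 each). The groups overlapped in all 4.

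Among 9 tested related receptors and co-receptors, 4 were below and 5 above 0 (median 0.16). The genes named in this paragraph had the smallest p in their lists, which favours groups without overlap. For comparison, 8.7% of all tested loci did not overlap. Bmpr1a, a type I receptor for bone morphogenetic proteins, had 65.2, 91.3 and 71.2 scaled counts in B6.Sle1b, all above the 50.7, 61.8 and 24.0 of the Sle1b.IFNγR-/- libraries (log2 difference -0.81, limma unadjusted p = 0.0477, adjusted 0.9998). Acvr1 (6.3 ± 6.67 against 14.9 ± 6.33), Acvrl1 (22.2 ± 8.17 against 14.7 ± 7.17) and Bmpr1b (38.6 ± 11.1 against 47.7 ± 2.45), type I receptors of the same superfamily, overlapped between groups. Of 17 tested SMAD partners and brakes, 9 were below and 8 above 0 (median -0.03). Trim33, a regulator of SMAD4, had 93.2 ± 40.4 against 60.8 ± 16.5, and Smad9, a SMAD of the bone morphogenetic protein branch, 22.3 ± 17.0 against 32.6 ± 8.74, with overlap in each. The locus of Smurf2, a ubiquitin ligase that acts on TGF-β receptors and SMADs, is merged with Gm27322 and had 42.1 ± 42.4 against 43.1 ± 14.3, also with overlap. The locus of Zfyve9, an anchor for SMAD2 and SMAD3, is merged with the predicted gene Gm17354 and had 48.6 ± 2.36 against 38.6 ± 2.02 without overlap (limma adjusted p = 0.9998).

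Of 6 tested RUNX partners, 4 were below and 2 above 0 (median -0.04). Runx1, the family member whose promoter holds the same 18 bases, had 147 ± 46.3 scaled counts in B6.Sle1b and 104 ± 25.2 in Sle1b.IFNγR-/-, and the groups overlapped. Cbfb, the subunit that all RUNX proteins bind, had 79.5, 0.0 and 14.1 against 18.4, 13.5 and 32.3, with the lowest and the highest of all libraries both in B6.Sle1b. Runx1t1, a RUNX1 co-repressor, had 34.7 ± 8.14 against 46.6 ± 5.01, and the kinase gene Hipk2 109 ± 30.1 against 104 ± 15.7, with overlap in each. Of 10 tested TGF-β responsive genes, 8 were below and 2 above 0 (median -0.25). The locus of Foxp3, the regulatory T cell factor, is merged with Ppp1r3fos and had 88.2 ± 10.5 against 64.0 ± 12.0, and the collagen gene Col1a1 had 19.6 ± 8.92 against 12.4 ± 10.2 (SD, n = 3 each), with overlap in each. The integrin gene Itga1 had 77.7 ± 12.9 against 62.3 ± 11.5, and Id3, an inhibitor of DNA binding, 12.2 ± 8.19 against 7.85 ± 8.92, again with overlap. Without B6.Sle1b replicate 1 the median of the responsive genes was 0.04, with 4 below and 5 above 0.

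Igha, the gene towards which the pathway directs switching (ENSMUSG00000095079.6, chromosome 12, 113254830 to 113260236), had 762, 75.6 and 115 scaled counts in B6.Sle1b against 241, 285 and 242 in Sle1b.IFNγR-/-. The Sle1b.IFNγR-/- libraries lay above B6.Sle1b replicates 2 and 3 and below replicate 1. With all libraries the log2 difference of Igha was 0.44 (limma adjusted p = 0.9998). Leaving out B6.Sle1b replicate 1 gave 1.44, with a limma adjusted p of 0.0169, and 0.0264% of all tested loci then passed. With all 6 libraries and the ribosomal level as a covariate, the difference of Igha was 1.34 (limma adjusted p = 0.0061), and without B6.Sle1b replicate 2 it was -0.22 (limma adjusted p = 0.9285). Over the other alternatives the limma adjusted p of Igha lay between 0.0099 and 0.9998.

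The ratio of Igha to Tgfbr2 in the same library was 5.62, 2.56 and 2.73 in B6.Sle1b against 3.94, 5.29 and 7.48 in Sle1b.IFNγR-/-, with overlap through B6.Sle1b replicate 1. Of 26 tested genes of IgA switching and IgA plasma cells, 19 were below and 7 above 0 (median -0.29, and -0.10 without B6.Sle1b replicate 1). The genes named next had the smallest p among the 26, a choice that favours groups without overlap. Over all tested loci the groups did not overlap in 8.7%. Pigr, the receptor that carries polymeric IgA across epithelia, had 75.4, 70.7 and 76.9 scaled counts in B6.Sle1b, all above the 33.2, 60.7 and 32.3 of the Sle1b.IFNγR-/- libraries (limma unadjusted p = 0.0211, adjusted 0.9998). Igj, the chain that joins IgA and IgM units, had 377, 53.4 and 86.2 against 44.6, 52.8 and 40.7, also without overlap. The plasma cell factor genes Prdm1 (70.2 ± 14.5 against 42.7 ± 7.67) and Xbp1 (101 ± 103 against 26.4 ± 0.634) overlapped for Xbp1 and not for Prdm1 (limma adjusted p = 0.9998 for each).

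Profiles over the 6 libraries were compared by the mean absolute difference of centred log2 values. Tgfbr1 and Smad3 were the most alike of the 9 genes (0.17), and Tgfb1 was the least like any other, with Tgfbr2 nearest at 0.67. Among 12646 tested loci, with predicted genes, pseudogenes, small RNAs and immune receptor segments left out, the nearest to Tgfb1 were Adap2os (0.17), Abi3 (0.22) and Prmt6 (0.23). The Tgfb1 profile rests on 1 to 11 fragments a library, so counting error enters its shape, and the likeness is a description. Adap2os had 22.4, 4.11 and 4.69 scaled counts in B6.Sle1b against 26.2, 12.4 and 13.2 in Sle1b.IFNγR-/-.

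Markers of the cell types that make or use this pathway were read in the same libraries. Summed values of 8 B cell markers ranged from 822.9 to 1797.5 in B6.Sle1b and from 870.0 to 956.3 in Sle1b.IFNγR-/-, so the markers that define this spleen cell type were present. The same sums were 246.6 to 367.9 and 253.6 to 291.1 for 8 markers of megakaryocytes and platelets, a rich source of TGF-β1, and 343.6 to 504.4 and 306.8 to 394.1 for 6 markers of regulatory T cells. They were 311.6 to 1247.2 and 486.2 to 531.8 for 8 markers of macrophages and monocytes, and 67.4 to 101.9 and 85.7 to 97.0 for 8 of CD8 T and NK cells, where Runx3 is known to act. For 7 matched markers of plasmacytoid dendritic cells, a type known for Runx2, they were 96.2 to 207.9 and 90.9 to 121.0. For 8 T cell markers they were 253.2 to 456.5 and 255.3 to 279.8, for 8 stromal and endothelial markers 207.2 to 412.7 and 202.4 to 226.5, and for 8 pancreas markers 50.6 to 96.2 and 34.8 to 63.5. Plasma cell markers alone did not overlap, at 209.6 to 1054.6 and 164.1 to 186.5, with Tnfrsf17 at 0 in all libraries. This list includes Igj, Prdm1 and Xbp1, named above for their small p, so it is not a separate result. Among single tested loci, 8.7% did not overlap. The highest value belonged to B6.Sle1b replicate 1 in each of these lists but pancreas, where it was B6.Sle1b replicate 2. The part of cell composition in the values of the pathway genes was not tested.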

How the data were processed

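Spleen RNA of imiquimod-treated B6.Sle1b and Sle1b.IFNγR-/- mice (3 samples each) was sequenced after Ovation V2 library preparation, per the labels' protocols. The submitters' processing notes name TopHat2 2.0.9 and Cufflinks 2.2.1, with CASAVA, and the build GRCm38. Strand setting, annotation release and multi-mapping rules were not given in the sources here, so overlapping or antisense transcripts are not separated. The deposited signal is a fragment count per locus scaled by quartile by the authors, per the file headers. In each library 99.8% of positive values were whole multiples, within 0.01, of 1 fragment. Because the rest were not, tests for counts, planned as alternatives, were not run. The 1530481 rows were collapsed to 426574 loci, of which 381780 had no gene name and were not tested, and 18 columns of variances were not used.

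The test used limma 3.58.1 (R 4.3.3) with a mean-variance trend and no term but genotype, on log2(value + 1) of the 19227 named loci whose mean reached 10, and p-values were adjusted by Benjamini-Hochberg over all of them. Shares were compared with exact permutation tests, and intervals of fragments are exact Poisson or binomial intervals at 95%, under python 3.11.15 with scipy 1.17.1, pandas 2.3.3, numpy 2.4.6 and matplotlib 3.10.9. Gene positions and lengths came from GENCODE mouse release 21 (GRCm38). The genes, the lists and the rule for naming genes were chosen with earlier results of these data known. The rule takes the 9 pathway genes, Igha, up to 4 genes of smallest p in each further list and the 3 loci most like Tgfb1. Promoter motifs other than those for SMAD and RUNX are not reported here, for a reason unrelated to their outcome. Alternatives were median-ratio and ribosomal protein scaling, a ribosomal covariate, no minimum or a minimum of 50, pseudocounts of 0.5 and 10, a replicate block, leaving out each library, summing loci of a name, and shares per kb of exon.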

Additional observations from a re-analysis of the deposited data

How the results depend on the processing

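The count of loci past an adjusted p of 0.05 in limma was 0 as reported, 8 with the ribosomal covariate, between 0 and 5 when single libraries were left out (5 without B6.Sle1b replicate 1 and 5 without replicate 2), 5 with no minimum and without B6.Sle1b replicate 1, and 0 in the other alternatives. None of these calls was 1 of the 9 pathway genes, of which Tgfb1 and Smad7 were tested only in the fits with no minimum. Igha was among those with the covariate and those without B6.Sle1b replicate 1. These settings are not independent, since the covariate mainly sets that library apart.

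With ribosomal protein scaling the log2 differences changed sign to 0.11 for Tgfbr1, 0.34 for Tgfbr2, 0.40 for Smad2, 0.10 for Smad3, 0.26 for Smad4, 0.48 for Smad7, 0.41 for Runx2 and 0.37 for Runx3, beside a median of 0.45 over all tested loci. With the ribosomal covariate they changed sign to 0.35 for Tgfbr2, 0.14 for Smad2 and 0.74 for Smad7. A pseudocount of 0.5 gave 0.04 for Smad7. Without B6.Sle1b replicate 1 and with no minimum they were 0.04 for Tgfbr1, 0.42 for Tgfbr2, 0.17 for Smad2 and 0.75 for Smad7. With single libraries left out they ranged from -0.79 to 0.04 for Tgfbr1, -0.66 to 0.42 for Tgfbr2, -0.45 to 0.23 for Smad2, -1.16 to 0.75 for Smad7, -0.45 to 0.06 for Runx2, -0.65 to 0.47 for Runx3 and -0.22 to 1.44 for Igha. Those of Smad3 (-0.66 to -0.12), Smad4 (-0.48 to -0.02) and Tgfb1 (0.67 to 1.98) kept their sign there.

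The difference in share ranged with single libraries left out from -2.52 to 3.87 percentage points for Tgfbr2, -1.74 to 5.63 for Smad2, -3.63 to 1.33 for Smad4, -0.992 to 0.341 for Smad7, -3.32 to 3.92 for Runx2 and -0.99 to 3.63 for Runx3, and kept its sign for Tgfb1 (1.15 to 2.18), Tgfbr1 and Smad3 (-3.17 to -0.805 and -3.61 to -0.805). Per kb of exon that of Tgfbr2 was 0.014. The cause of these changes was not tested.

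No pairing by replicate number was seen: deviations of same-numbered libraries from their group means correlated at 0.012, -0.027 and -0.011. With 3 libraries in each group this check cannot exclude a pairing. With the replicate block 0 loci passed, as without it, and 567 had an unadjusted p under 0.05. Depth limits Tgfb1 and Smad7 most, at 0 to 13 fragments a library. The count-based tests planned as alternatives were not run, because whole fragments could not be recovered for all values.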
